A study of Mus musculus with 8 samples.

Results

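The 9 genes described here, *Ret*, *Gfra1*, *Gfra2*, *Gfra3*, *Gdnf*, *Etv4*, *Etv5*, *Spry1* and *Wnt11*, belong to the GDNF receptor pathway or mark the ureteric tips on which it acts. They were chosen by symbol and make up 9 of the 24063 genes and 18 of the 33068 transcripts listed in the tables. RNA-Seq was performed on mouse tubuloids, three-dimensional cultures in Matrigel that start from fragments of tubules of the kidney at postnatal day 7 to 10. All cultures carried the genotype *Pkd2*fl/fl *Pax8*rtTA *TetO*Cre mTmG, so every control also had the floxed *Pkd2* alleles. In this system Cre is expressed only where the renal epithelial *Pax8* promoter drives rtTA, and only with doxycycline, which the labels do not list for these cultures. All cultures received medium containing growth factors, which were HGF, EGF and FGF by the study's methods. A total of 4 cultures (numbers 6, 12, 17 and 22) received GDNF in this medium for a 24 h pulse, and 4 control cultures (numbers 3, 7, 14 and 21) received the medium without GDNF. Culture ended on day 7, when RNA was taken, and 6 days had then passed since the pulse. The values therefore describe the cultures well after GDNF was removed, and the labels do not say which cultures came from separate mice, so that p-values measure the spread between these cultures.

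GDNF is a secreted ligand that binds the membrane-anchored co-receptor GFRα1, and the pair activates the receptor tyrosine kinase Ret. In the developing kidney the ligand is made by the mesenchyme and the receptor is concentrated at the tips of the ureteric bud, where its activity drives branching and the growth of the collecting duct system. Ret signals through the MAPK and PI3K cascades. Downstream, it induces the ETS transcription factors *Etv4* and *Etv5*, the feedback inhibitor *Spry1* and the tip ligand *Wnt11*. GFRα2 and GFRα3 are the co-receptors preferred by the related ligands neurturin and artemin.

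Because *Etv4* and *Etv5* encode ETS factors, which bind DNA around a GGAA core, the bases before the annotated starts of the 9 genes were searched for the 6-letter sequence CCGGAA on either strand. RefSeq start windows of GRCm38.p6 matched 5 of the 9 genes (*Spry1*, *Wnt11*, *Gdnf*, *Etv5* and *Gfra1*) with 8 windows of 250 bases, and 2 of the 8 windows held the sequence. The share over all 32851 start windows was 12.03%, so that the members' windows offer no more than a description. The following stretches are shown to give the context of the matches in *Gfra1* and *Wnt11* beside *Spry1*, the most abundant of the 9 RNAs. Each reads 5′ to 3′ on the gene's strand, with CCGGAA or its reverse complement in capitals.
*Gfra1*, minus strand, chr19:58455537-58455566: gagaaagtgaggCCGGAAagagaaagagga
*Wnt11*, plus strand, chr7:98838595-98838844: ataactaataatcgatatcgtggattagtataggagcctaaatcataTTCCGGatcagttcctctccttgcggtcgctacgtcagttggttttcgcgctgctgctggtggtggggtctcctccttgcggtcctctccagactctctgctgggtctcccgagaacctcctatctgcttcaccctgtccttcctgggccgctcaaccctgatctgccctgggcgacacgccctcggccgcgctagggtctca
*Spry1*, plus strand, chr3:37639697-37639946: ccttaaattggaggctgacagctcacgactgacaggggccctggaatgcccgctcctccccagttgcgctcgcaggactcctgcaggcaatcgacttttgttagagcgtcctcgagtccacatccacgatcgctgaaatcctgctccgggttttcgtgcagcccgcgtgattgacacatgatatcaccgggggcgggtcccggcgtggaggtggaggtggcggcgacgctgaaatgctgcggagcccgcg
The match began 156 bases before the start in *Gfra1* and 203 bases before one of its starts in *Wnt11*, whereas the *Spry1* window held none. The *Gfra1* match lies inside the annotated span of the gene (chr19:58235581-58455946), which reaches farther upstream on the minus strand. The *Wnt11* match lies inside the annotated span of the gene (chr7:98835084-98854747), and the window before its upstream start held none. A match is only a string of letters, and binding was not measured.

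Total transcript counts were 72991721 to 97490625 per culture, and filtering on low counts left 16557 genes for testing, among them 8 of the 9 members. Some properties of whole libraries differed between the groups. With one transcript per gene, transcripts of at least 4000 bases took 14.6% of the counts in control culture 3 and 21.4% to 22.5% in the other controls, against 23.3% to 28.7% after GDNF. The deposited TPM values (a level per transcript that corrects for its length and is scaled to a common total) had a higher mean after GDNF for 78.5% of the 13569 genes that averaged 1 TPM or more, with a median log2 ratio of 0.39. CPM, counts scaled to a common library total, after TMM scaling, which sets the bulk of genes level, had a median log2 difference of 0.03 over all genes tested. Scaling by library size alone gave 0.25, and it moved the genes with an unadjusted p of at most 0.05 from 1531 higher and 2134 lower to 3299 higher and 850 lower. Values in TPM compare genes with each other below, and differences between groups are read from the TMM scale.

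In TPM, *Spry1* stood far above the other members, followed by the 2 ETS factors and the co-receptor *Gfra1*, then by *Wnt11*, and last by *Ret*, *Gfra2* and *Gdnf*. The mean of the 4 control cultures was 116 ± 20.3 TPM (SD) for *Spry1*, a level that 95.2% of genes with any TPM in controls did not exceed. It was 13.7 ± 1.67 TPM for *Etv5*, 12.7 ± 1.93 TPM for *Etv4* and 10.7 ± 3.66 TPM for *Gfra1*. These 3 genes overlapped in range, so that their order cannot be given.

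*Wnt11* followed at 4.01 ± 0.570 TPM. *Ret* at 0.992 ± 0.546 TPM and *Gfra2* at 0.869 ± 0.279 TPM did not differ beyond their spread, and *Gdnf* lay lower at 0.313 ± 0.142 TPM. The co-receptor was thus listed well above the receptor it serves. *Gfra1* was 5.11 to 26.8 times *Ret* in TPM in the control cultures and 8.15 to 24.4 times *Ret* in the GDNF cultures, ranges that overlapped.

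The receptor gene *Ret* (GRCm38.p6, chr6:118151748-118197744) gave 0.695, 0.919, 0.572 and 1.78 TPM in control cultures 3, 7, 14 and 21. In GDNF cultures 6, 12, 17 and 22 it gave 2.27, 1.94, 1.03 and 1.58 TPM. The groups overlapped: control 21 exceeded 2 of the GDNF cultures, and GDNF 17 lay near the controls. The exact two-sided permutation test over the 70 assignments of cultures to groups gave p = 0.114, and in edgeR, on counts, the log2 difference was 0.42 ± 0.35 (SE, adjusted p = 0.483). *Ret* has the longest transcript of the 9 genes, at 7341 bases, and with a transcript length trend removed from each library its log2 difference was 0.08 (edgeR, adjusted p = 0.937). Leaving out control 21 gave 0.70 (edgeR, adjusted p = 0.251), whereas leaving out GDNF 6 gave 0.22 (edgeR, adjusted p = 0.738) and leaving out control 14 gave 0.23 (edgeR, adjusted p = 0.690).

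The 2 listed *Ret* transcripts, of 7341 and 6064 bases, share most of their reads. The lower count of the pair was 81.2% to 90.3% of the higher one in each culture, and the 2 isoforms were not told apart. In bulk RNA, fewer *Ret*-expressing cells and less *Ret* RNA per cell cannot be told apart either, which holds for each gene here.

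The co-receptor gene *Gfra1* (chr19:58235581-58455946) showed the lowest p of the 9 genes in edgeR. It gave 6.78, 11.4, 15.4 and 9.10 TPM in control cultures 3, 7, 14 and 21, against 20.1, 15.8, 25.1 and 21.4 TPM in GDNF cultures 6, 12, 17 and 22. All GDNF cultures lay above all controls, though GDNF 12 was only just above control 14. On the TMM scale the controls gave 82.7, 101, 136 and 74.8 CPM, and the GDNF cultures gave 152, 112, 178 and 144 CPM. Here the groups overlapped, because control 14 exceeded GDNF 12.

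The log2 difference of *Gfra1* was 0.57 ± 0.21 (edgeR, unadjusted p = 0.0237, adjusted p = 0.183). It was 0.35 with the length trend removed (edgeR, unadjusted p = 0.142), and the unadjusted p also rose above 0.05 when control 3 (0.0578), control 21 (0.0893) or GDNF 17 (0.0745) was left out of the edgeR fit. Adjusted over all genes, *Gfra1* did not pass in any setting. Its transcripts share nearly all reads, the lowest count being 98.8% to 99.5% of the highest, so coding and non-coding isoforms were not separated.

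*Gfra2* (chr14:70890107-70979840) was low in all cultures. It gave 0.536, 0.750, 1.15 and 1.03 TPM in control cultures 3, 7, 14 and 21, and 1.12, 1.08, 2.13 and 1.77 TPM in GDNF cultures 6, 12, 17 and 22. The highest control lay above the 2 lowest GDNF cultures. The exact permutation p was 0.0857 on TPM and 0.200 on CPM with TMM, and the log2 difference was 0.44 ± 0.31 (edgeR, adjusted p = 0.419). Without GDNF 17 the difference was 0.23 (edgeR, adjusted p = 0.726).

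*Gfra3* (chr18:34689898-34720387) was not detectable at this depth. It had 1 count in each of control cultures 7 and 14 and 0 in the other 6 cultures, where 3 counts would have been 0.0243 to 0.0395 TPM. It was not tested.

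Endogenous *Gdnf* RNA (chr15:7810048-7837580) was present at a trace in every culture; the added GDNF was protein and gives no reads. The control cultures 3, 7, 14 and 21 had 0.296, 0.254, 0.188 and 0.515 TPM, and GDNF cultures 6, 12, 17 and 22 had 0.194, 0.320, 0.495 and 0.298 TPM. The ranges were nearly the same, with control 21 and GDNF 17 highest in their groups. The exact permutation test gave p = 0.800. On counts *Gdnf* was the only member with a negative log2 difference, -0.35 ± 0.38 (edgeR, adjusted p = 0.603), whereas its mean TPM was 0.0137 higher after GDNF, so that its direction depended on the scale. On counts it ranged from -0.60 without GDNF 17 to -0.15 without control 21 as single cultures were left out, with -0.56 without control 14, -0.22 without control 3 and -0.20 without GDNF 6.

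The ETS factors *Etv4* (chr11:101769747-101785310) and *Etv5* (chr16:22381313-22439570) were similar to each other in level and in difference. *Etv4* gave 10.6, 15.3, 12.7 and 12.3 TPM in control cultures 3, 7, 14 and 21, and 18.0, 24.0, 20.5 and 20.1 TPM in GDNF cultures 6, 12, 17 and 22. *Etv5* gave 11.2, 14.1, 14.7 and 14.7 TPM in the same controls, and 22.9, 23.0, 19.4 and 20.4 TPM in the same GDNF cultures. For both genes every GDNF culture lay above every control in TPM.

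On the TMM scale the margin all but closed. The lowest GDNF culture had 22.2 CPM of *Etv4* and the highest control had 22.3 CPM, while *Etv5* had 36.9 CPM in its lowest GDNF culture and 36.8 CPM in its highest control. The log2 differences were 0.30 ± 0.15 for *Etv4* (edgeR, adjusted p = 0.274) and 0.26 ± 0.13 for *Etv5* (edgeR, adjusted p = 0.275). Removing the length trend left *Etv4* at 0.33 (edgeR, unadjusted p = 0.0455) and took *Etv5* to 0.12 (edgeR, unadjusted p = 0.407).

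*Spry1* (chr3:37639947-37644599), which encodes an inhibitor of receptor tyrosine kinase signalling, gave 92.9, 120, 142 and 110 TPM in control cultures 3, 7, 14 and 21. It gave 201, 158, 214 and 184 TPM in GDNF cultures 6, 12, 17 and 22. The lowest GDNF culture, number 12, was above the highest control, number 14. On the TMM scale control 14 (219 CPM) exceeded GDNF 12 (197 CPM) and GDNF 22 (216 CPM), and the log2 difference was 0.31 ± 0.16 (edgeR, adjusted p = 0.272). The 5′ end of *Spry1* overlaps Gm42922 of the GENCODE annotation (chr3:37638579-37640656), which runs on the opposite strand. Strand handling is not stated for these counts, so reads from the 2 genes in this overlap may not be told apart.

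*Wnt11* (chr7:98835084-98854747) is a ligand of the ureteric tip whose transcription is maintained by Ret. It gave 3.25, 4.61, 3.96 and 4.21 TPM in control cultures 3, 7, 14 and 21, and 5.86, 6.12, 4.51 and 5.36 TPM in GDNF cultures 6, 12, 17 and 22. In TPM, GDNF 17 lay just below control 7, and the exact permutation p was 0.0571. On CPM with TMM the exact permutation p was 0.657, and GDNF 17 was below every control, at 26.6 CPM. On counts the difference was close to zero, with a log2 difference of 0.05 ± 0.15 (edgeR, adjusted p = 0.854), beside a median of 0.03 over all genes. It turned slightly negative, to -0.03 at the lowest, when control 21, GDNF 6 or GDNF 12 was left out.

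**Figure D1:**
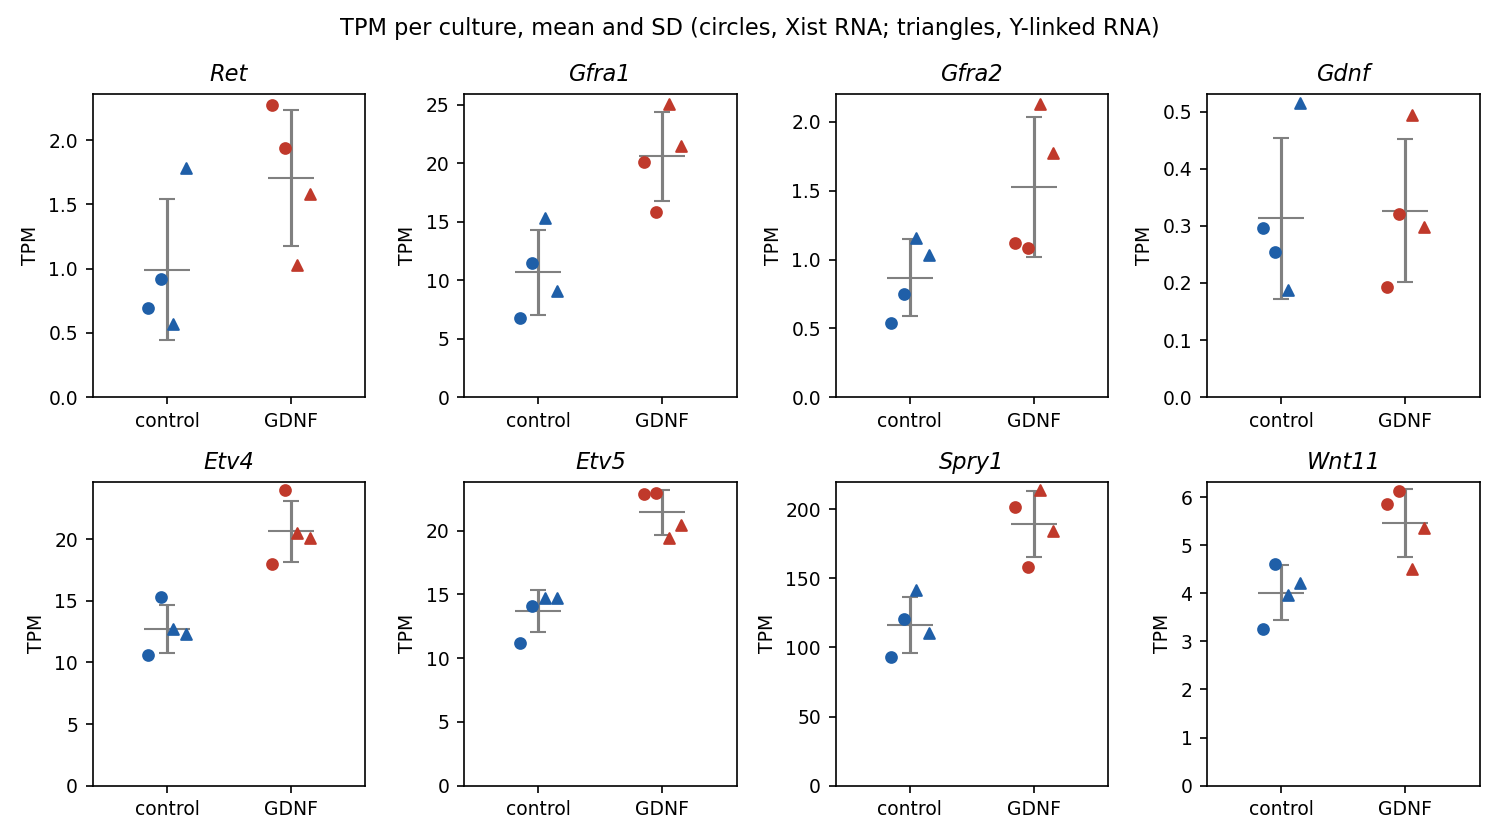
TPM of 8 of the 9 genes (y axes, linear and starting at 0) in the 4 control cultures (blue) and the 4 GDNF cultures (red); each point is 1 culture, drawn as a circle where *Xist* RNA and as a triangle where Y-linked RNA was prominent, and grey bars give the mean and SD. For *Gfra1*, *Etv4*, *Etv5* and *Spry1* the red points all lie above the blue points, whereas *Gdnf* is spread alike in both groups.

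Taking the 9 genes together by counts, 4 of the 8 tested (*Gfra1*, *Etv4*, *Etv5* and *Spry1*) were higher in TPM in every GDNF culture than in every control, the arrangement that gives the smallest two-sided exact permutation p possible with 4 against 4, 0.02857. Among all 16557 genes tested 20.6% lay so, and adjusted over those genes the p was 0.135. No member lay lower without overlap, against 0.61% of all genes. On the TMM scale only *Etv5* kept the groups apart, where the share of all genes higher without overlap was 6.99%. The TPM separation of the 4 genes was therefore accompanied by the higher TPM of most genes after GDNF, and the part of that shift in each gene's difference was not tested beyond the TMM scale.

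In edgeR with adjustment over all genes, 0 of the 8 members passed an adjusted p of 0.05, beside 0% of all genes, whose lowest adjusted p was 0.167. Taken at an unadjusted p up to 0.05, edgeR gave 3665 genes, 9.25% of all genes higher and 12.9% lower, and of the members it gave *Gfra1*, higher. DESeq2 called 1057 of 11724 genes with an adjusted value, 9.02%, and none of the 6 members that had one, the smallest adjusted p of a member being 0.111 for *Gfra1*. With library size alone as the scale, *Gfra1*, *Etv4*, *Etv5* and *Spry1* had unadjusted edgeR p-values of 0.00707, 0.00837, 0.00581 and 0.00674, where 19.9% of all genes were higher at p of at most 0.05. Their log2 differences on that scale were 0.78, 0.52, 0.48 and 0.53 (edgeR, adjusted p = 0.161 for each), beside 0.25 in the median gene. *Ret* and *Gfra2* had 0.63 and 0.65 there, *Wnt11* 0.27 and *Gdnf* -0.12, all with larger p-values. The 4 genes were named for their low p on that scale, so their place above the median gene is no separate result. Without control 3, the library with the fewest counts in long transcripts, the edgeR log2 differences were 0.39 for *Ret*, 0.49 for *Gfra1*, 0.35 for *Gfra2*, -0.22 for *Gdnf*, 0.34 for *Etv4*, 0.29 for *Etv5*, 0.33 for *Spry1* and 0.08 for *Wnt11*. Control 21 weighed more on the targets: without it the log2 difference was 0.18 for *Etv4* (edgeR, adjusted p = 0.542) and 0.19 for *Spry1* (edgeR, adjusted p = 0.503). The median log2 difference of the 8 members was 0.31 on the TMM scale, against 0.03 over all genes.

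**Figure D2:**
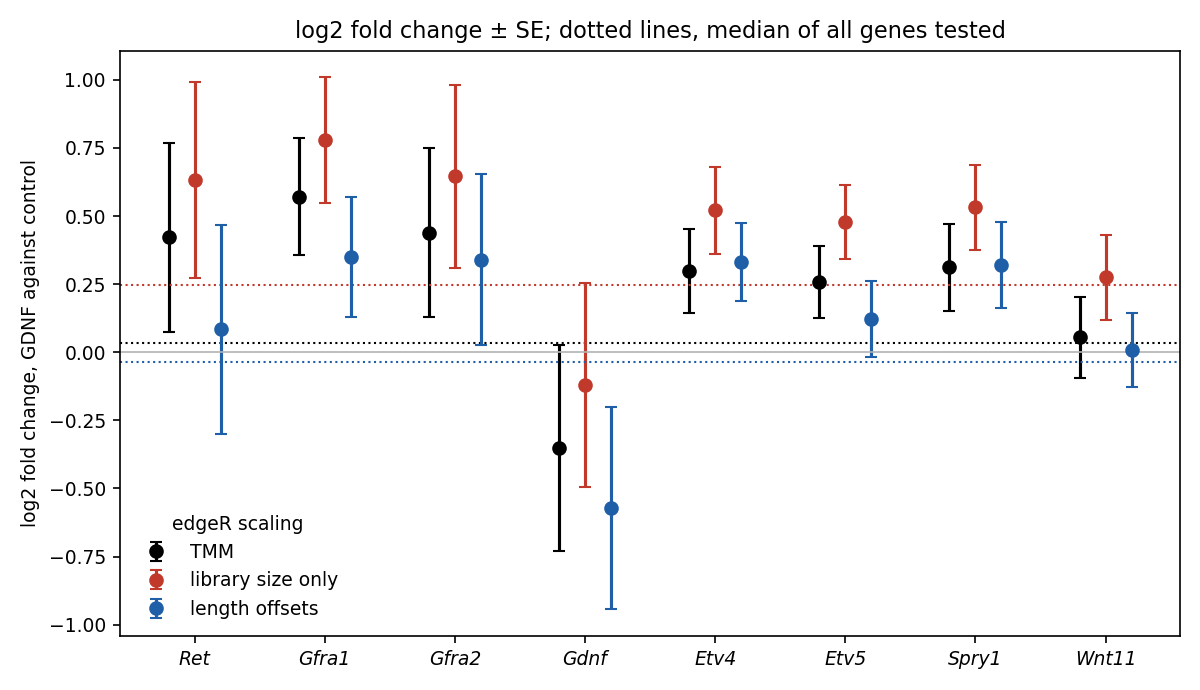
log2 fold change of GDNF against control cultures (y axis) with its SE for 8 genes (x axis), from edgeR fits with TMM scaling (black), library size only (red) or a transcript length trend removed (blue); dotted lines are the medians of all genes tested in the same colours. *Etv4* and *Spry1* lie alike on the TMM and length scales (0.30 and 0.33, 0.31 and 0.32), whereas *Ret* drops from 0.42 to 0.08 with the length trend removed.

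The controls were not alike in their marker RNAs. The summed TPM of 6 epithelial markers (*Cdh1*, *Epcam*, *Krt8*, *Krt18*, *Cdh16* and *Cldn7*) was 2089, 1016, 377 and 3326 in control cultures 3, 7, 14 and 21. It was 1391, 1044, 942 and 936 in GDNF cultures 6, 12, 17 and 22, a narrow range inside that of the controls. The sum is weighted to *Krt8* and *Krt18*, which reached 1259 and 1502 TPM in controls, whereas *Cdh1* reached 57.5 TPM. *Cdh16* and *Epcam* went above their highest control after GDNF, to 120 against 57.9 TPM and 199 against 180 TPM. The other markers stayed inside their control ranges. Control cultures 3 and 21, which had the highest epithelial sums, had the lowest *Gfra1* of all cultures (82.7 and 74.8 CPM), and control 14, with the lowest epithelial sum, had the highest *Gfra1* of the controls.

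*Ret* ran the other way among controls, being highest in control 21 and lowest in control 14. Of the epithelial markers 1 of 6 was higher and 5 were lower by the edgeR estimate, and *Krt8*, a keratin of simple epithelia, had an unadjusted p of at most 0.05, with a log2 difference of -1.45 ± 0.63 (edgeR, adjusted p = 0.216). All 6 markers were detected in every culture.

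Markers of fibroblasts and stroma (8 genes) summed to 115 to 1051 TPM in controls, with culture 3 lowest and culture 14 highest, and to 141 to 872 TPM after GDNF. 3 of the 8 were higher and 5 lower, and *Lum*, which encodes a matrix proteoglycan, had a log2 difference of -1.30 ± 0.37 (edgeR, adjusted p = 0.167; DESeq2, adjusted p = 0.0295). Endothelial markers summed to 9.28 to 30.7 TPM in controls and 12.2 to 31.3 TPM after GDNF. Of the 4 tested, 1 was higher and 3 lower, with a median log2 difference of -0.45. The higher one was *Tek*, an angiopoietin receptor, at 0 to 0.470 CPM in controls and 0.120 to 1.82 CPM after GDNF (edgeR, adjusted p = 0.193). It had few reads, 0 to 177 counts per culture. Markers of leukocytes (2.86 to 5.37 against 4.20 to 8.40 TPM) and of podocytes (6.82 to 59.6 against 6.67 to 48.2 TPM) overlapped between control and GDNF cultures. Schwann cell and neuronal markers, included because these cells also use Ret, summed to 4.62 to 10.6 TPM in controls and 4.72 to 11.3 TPM after GDNF, with the defining Schwann cell gene *Sox10* at 0 counts in all 8 cultures. The part of cell makeup in the differences of the 9 genes was not tested.

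The genes around the 9 members were counted by their place in the pathway, with no set test. Of 8 ligands and other co-receptors 6 were tested, 3 higher and 3 lower, with a median log2 difference of -0.03 beside 0.03 over all genes. None had an unadjusted edgeR p of at most 0.05, the smallest being 0.0676 for *Ncam1*, an alternative co-receptor of GDNF, at 0.57 ± 0.28.

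The 26 adaptors and kinases that carry the Ret signal to Ras, MAPK and PI3K were divided, 14 higher and 12 lower (median 0.03). The scaffold *Gab1* had 21.2, 26.8, 24.6 and 24.1 CPM in control cultures 3, 7, 14 and 21, and 30.2, 43.6, 40.2 and 38.0 CPM in GDNF cultures 6, 12, 17 and 22. The kinase gene *Map2k1*, which encodes MEK1, had 119, 82.1, 106 and 94.6 CPM in the same controls and 55.9, 70.9, 74.3 and 56.9 CPM in the same GDNF cultures. In neither gene did the groups overlap.

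Of the 26, 3 were higher at an unadjusted edgeR p of at most 0.05, namely *Gab1* (0.65 ± 0.15), the kinase gene *Braf* (0.64 ± 0.26) and the PI3K catalytic subunit *Pik3ca* (0.44 ± 0.17). A further 3 were lower, namely *Map2k1* (-0.64 ± 0.16), *Hras* (-0.61 ± 0.20) and the adaptor *Grb2* (-0.40 ± 0.15). Both counts are near the shares over all genes, 9.25% higher and 12.9% lower. None passed after adjustment over all genes in edgeR (smallest adjusted p = 0.167), and DESeq2 called *Gab1*, *Map2k1* and *Hras* (adjusted p = 0.0297, 0.0287 and 0.0487), beside 9.02% of all genes. The 3 higher genes have transcripts of 4992, 9728 and 8917 bases and the 3 lower ones of 2387, 2272 and 2610 bases. With the length trend removed the log2 differences of *Gab1*, *Braf* and *Pik3ca* were 0.41, 0.25 and 0.01, and those of *Map2k1*, *Hras* and *Grb2* were -0.61, -0.56 and -0.40.

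Among 14 feedback inhibitors and targets of ERK signalling, the class to which *Spry1* and *Etv5* belong, 10 were higher and 4 lower. Of all 16557 genes 8691 were higher and 7866 lower. The list median was 0.22, and 0.13 with the length trend removed, beside 0.03 and -0.04 over all genes. At an unadjusted edgeR p of at most 0.05, 2 were higher, beside 9.25% of all genes. *Il17rd*, which encodes a membrane inhibitor of FGF and MAPK signalling, had 10.83, 16.96, 16.28 and 13.18 CPM in control cultures 3, 7, 14 and 21, and 27.48, 18.06, 27.31 and 25.18 CPM in GDNF cultures 6, 12, 17 and 22. It was higher in every GDNF culture, by 0.78 ± 0.20 (edgeR, adjusted p = 0.167; DESeq2, adjusted p = 0.0336). Its transcript has 8220 bases, and the difference was 0.40 with the length trend removed. *Spred3*, of the Sprouty-related family, differed by 0.54 ± 0.18 (edgeR, adjusted p = 0.167).

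Of 13 other genes of the ureteric tip, 11 were higher and 2 lower, with a median of 0.17, where 8691 of all 16557 genes were higher. Of the 13, 1 was higher at an unadjusted edgeR p of at most 0.05, a share not above the 9.25% of all genes. This was *Lhx1*, a homeobox gene of the ureteric bud and early nephron, which differed by 0.92 ± 0.37 (edgeR, adjusted p = 0.199). Its 4 controls had 4.19 to 7.46 CPM, and GDNF cultures 6, 12, 17 and 22 had 20.3, 9.65, 5.79 and 7.80 CPM, so that culture 6 carried much of the difference and culture 17 lay within the controls.

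Of 7 tested genes of the ureteric stalk and collecting duct, 2 had higher and 5 lower estimates, with a median of -0.81, where 7866 of all 16557 genes were lower. At an unadjusted edgeR p of at most 0.05 there was 1, lower, beside 12.9% of all genes, and the difference from the tip genes was not tested. The keratin *Krt7* differed by -1.22 ± 0.54 (edgeR, unadjusted p = 0.0461, adjusted p = 0.220). It had 823, 291, 113 and 990 CPM in control cultures 3, 7, 14 and 21, against 204 to 269 CPM after GDNF, so the 2 controls with high epithelial sums stood apart and the other 2 spanned the GDNF range. *Aqp2*, the water channel of mature principal cells, had at most 25 counts and was not tested.

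Of 19 genes of the mesenchyme that regulate *Gdnf* or its reach, 12 were higher and 7 lower (median 0.21), where 8691 of all 16557 genes were higher. At an unadjusted edgeR p of at most 0.05, 2 were higher, near the 9.25% of all genes. *Sall1*, a zinc finger gene of nephron progenitors, had 22.9 to 33.2 CPM in controls and 34.6 to 61.6 CPM after GDNF, without overlap, and differed by 0.73 ± 0.20 (edgeR, adjusted p = 0.167; DESeq2, adjusted p = 0.0393). The *Sall1* transcript has 5257 bases, and its difference was 0.50 with the length trend removed (edgeR, unadjusted p = 0.0609). GDNF 6 held the 61.6 CPM, and GDNF 12, 17 and 22 had 42.5, 38.9 and 34.6 CPM. *Bmp4*, which encodes a secreted antagonist of ureteric budding, differed by 0.65 ± 0.22 (edgeR, adjusted p = 0.168), and by 0.72 with the length trend removed.

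**Figure D3:**
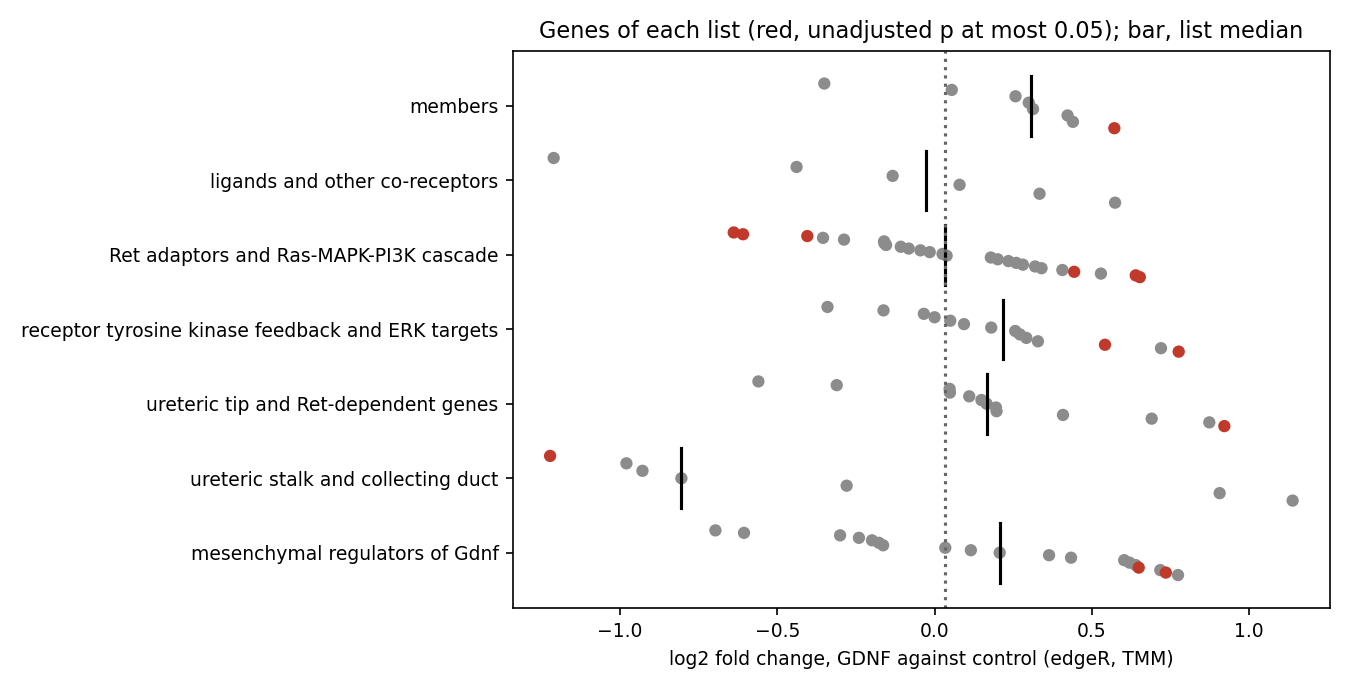
log2 fold change of GDNF against control cultures (x axis, edgeR with TMM scaling) for each tested gene of the members and of 6 lists of pathway genes (rows); red points have an unadjusted p of at most 0.05, black bars are list medians and the dotted line is the median of all genes tested. The stalk and collecting duct genes have the lowest median (-0.81), the members the highest (0.31), and the adaptors hold red points on both sides.

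Whether the receptor, its co-receptor and their targets varied together across cultures was examined next. A total of 7 relations on log2 CPM over the 8 cultures were computed with exact permutation tests, and none passed 0.05 after Benjamini-Hochberg adjustment over the 7. The closest pair was *Etv4* and *Etv5*, with Pearson's r = 0.67 (exact permutation p = 0.0677, adjusted p = 0.451) and Spearman's rho = 0.79 (exact permutation p = 0.0279, adjusted p = 0.195). Without control 21 and GDNF 12, the cultures farthest from the median of *Etv4*, r was 0.31, and on residuals from the group means it was 0.32. The drop in r was not tested in either case.

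*Ret* had r = 0.53 with *Etv5* and r = 0.51 with *Wnt11* (exact permutation p = 0.190 and 0.193, adjusted p = 0.451 for both; rho = 0.31 and 0.50, exact permutation p = 0.462 and 0.216, adjusted p = 0.977 and 0.757). Without control 14 and GDNF 6 these were 0.17 and 0.21. *Ret* and its co-receptor *Gfra1* had r = -0.21 (exact permutation p = 0.614, adjusted p = 0.736; rho = -0.17, exact permutation p = 0.703, adjusted p = 0.977), and -0.44 without the same cultures. On residuals from the group means *Ret* and *Gfra1* had r = -0.79 (permutation p = 0.0210, adjusted p = 0.147), and -0.54 without control 14 and control 21. This p is only approximate, because residuals centred within each group were permuted across both groups. Within a group only 4 cultures were available, too few for a correlation.

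As a description, the 3 genes of 11455 with a mean of at least 5 CPM whose log2 CPM followed *Ret* most closely over the 8 cultures were *Sgsm3*, *Frrs1* and *Rnf145* (Pearson's r = 0.96, 0.96 and 0.95). Those nearest to *Gfra1* were *Fgfr1*, a receptor of FGF, *Gse1* and *Oxtr*, the oxytocin receptor (r = 0.96, 0.94 and 0.94). These genes share the libraries and their depth with the members, and 27 and 25 genes reached r of at least 0.9 with *Ret* and *Gfra1*.

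The cultures also fell into 2 kinds that the labels do not name, each with 2 cultures of either group. *Xist* RNA was the more prominent in 4 (control 3 and 7, GDNF 6 and 12), and Y-linked RNA in the other 4. The *Xist* kind was not uniform. Control 3 had 12.5 TPM of *Xist* with 1.5022 TPM of Y-linked RNA, and GDNF 6 had 57.4 with 6.457 TPM. Control 7 and GDNF 12 had 0 TPM of Y-linked RNA. The source of the Y-linked RNA in control 3 and GDNF 6 was not tested. *Wnt11* followed the division into kinds rather than the pulse on the TMM scale. It was 33.1 to 37.1 CPM in the *Xist* kind and 26.6 to 30.1 CPM in the Y-linked kind. These ranges did not overlap, and 3.31% of all genes were likewise higher in the *Xist* kind without overlap. The other 7 tested members overlapped between the kinds. This division was noticed after the values of *Wnt11* were seen and is given with no test.

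Within the kinds, the log2 difference of *Ret* between group means was 0.88 in the *Xist* kind and 0.02 in the Y-linked kind. In the same order *Gfra1* gave 0.51 and 0.67, *Etv4* 0.21 and 0.39, *Etv5* 0.37 and 0.13, and *Spry1* 0.26 and 0.36. The *Xist* values include control 3 and GDNF 6, which also held Y-linked RNA. *Gdnf* and *Wnt11* differed in sign, with -0.63 and 0.02 for *Gdnf* and 0.12 and -0.03 for *Wnt11*. An edgeR interaction term for *Ret* had an unadjusted p of 0.151, and those of the other 7 members were larger.

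**Figure D4:**
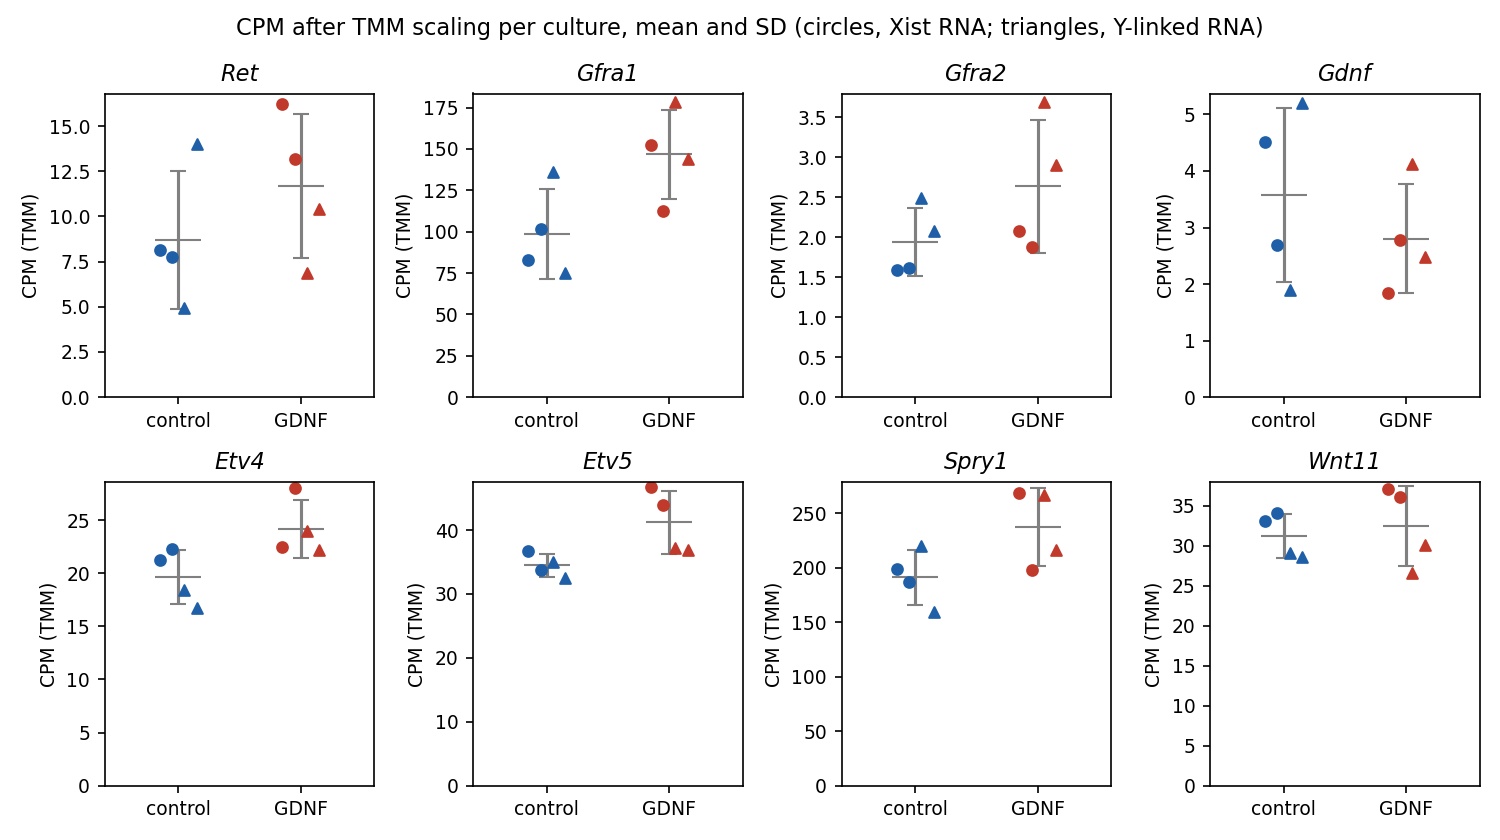
CPM after TMM scaling of 8 of the 9 genes (y axes, linear and starting at 0) in control (blue) and GDNF (red) cultures, with symbols and bars as in the plot of TPM. The 4 *Wnt11* circles (33.1 to 37.1 CPM) lie above the 4 triangles in both groups, and *Etv5* is the one gene whose red points all lie above the blue.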

How the data were processed

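The counts are whole numbers of reads per RefSeq transcript, deposited without normalization. Per the labels, poly-A selection was used, with the SMART-Seq v4 kit. The authors sequenced paired-end reads and mapped them with STAR to mm10 on the BasePair platform, and the submitters' processing notes also name featureCounts. Versions and strand handling are not given in the sources used here. A read shared by transcripts of 1 gene enters the count of each. The authors scaled the deposited TPM values over all transcripts, and the deposited FPKM values served only to recover transcript lengths. Samples were sequenced on 2 lanes, and the lane of each culture was not known.

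Counts were summed per symbol and tested with edgeR 4.0.16 (quasi-likelihood, TMM, filterByExpr, Benjamini-Hochberg over all genes) in R 4.3.3. DESeq2 1.42.0 and limma 3.58.1 were alternatives. Each gene's TPM was that of its most counted transcript and was tested by exact permutation in Python 3.11.15, and log2 CPM used a prior count of 1. The length trend was a spline with 5 degrees of freedom in each library. The code was tested on simulated data. Groups and culture numbers came from the labels. The groups share no numbers, and cultures were not paired in any test. Named genes were the 9 members, list genes with an unadjusted edgeR p of at most 0.05 (or the smallest of a list), markers by list, and the 3 closest correlates each of *Ret* and *Gfra1*. The members and lists were chosen with earlier results of these data known. Gene positions come from RefSeq GRCm38.p6, and the total depth leaves counting error small beside the spread between cultures, except for genes with a few counts.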

Additional observations from a re-analysis of the deposited data

Results flagged for a closer look

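In 78 sets of 4 cultures examined (each tested member in TPM and in CPM, the named list genes in CPM and the summed markers, by group), 1 value lay far from the other 3 by Dixon's criterion. This was *Lum* in control culture 14, at 59.9 CPM against 17.4 to 22.8 CPM in the other controls. Chance would give about 1 in 20 sets, or 3.9 of 78. No value of a member passed this criterion. *Etv5* in control culture 3, at 11.2 TPM against 14.1 to 14.7 TPM in the other controls, lay just under it.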

How the results depend on the processing

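Over 17 alternatives the log2 differences of the 8 tested members gave 136 values. Of these 133 kept their direction, the other 3 (*Wnt11*) are in the range below, and none of the 134 with an adjusted p passed 0.05 (smallest, 0.111), DESeq2 giving none for *Gfra2* and *Gdnf*. The number of genes called was 0 in edgeR and 1057 in DESeq2, and of pathway list genes 0 and 5. The number of members with an unadjusted p of at most 0.05 was 1, and 4 with library size only; leaving out 1 culture gave 0 to 1. Leaving out 1 culture moved *Wnt11* between -0.031 and 0.138. Members past the exact test numbered 4 in TPM and 1 in CPM with TMM, where the difference in *Gdnf* turned to -0.775 CPM. Leaving out a culture was not run for the exact test, since 3 against 4 cannot go below p = 0.0571. Relations past 0.05 were 0, and 1 on log2(TPM + 1), *Etv4* with *Etv5* (r = 0.91, exact permutation p = 0.00347, adjusted p = 0.0243). With library size only, r was 0.13 for *Ret* and *Gfra1*, 0.22 for *Ret* and *Spry1* and 0.44 for *Gfra1* and *Wnt11*. On log2(TPM + 1) these were 0.32, 0.43 and 0.66, and on residuals r for *Ret* and *Etv4* was -0.19. The cause of these changes was not tested. No paired analysis was run, because the labels name no pairs and the groups share no culture numbers. Whether a control and a GDNF culture came from the same preparation is not known, so any such pairing was ignored. With 4 cultures a group, the SE of *Ret* (0.35) was close to its difference (0.42).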
